A study of Mus musculus and Rattus norvegicus with 33 samples.

Results

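Troponins and tropomyosins are the regulatory proteins of the thin filament of striated muscle, and 9 of their genes were followed here through trained, sham-operated and untrained shin muscles of mice and rats. Their rows were taken by symbol, with earlier results of these data known. They are Tnni1 and Tnni2 (slow and fast troponin I), Tnnt1 and Tnnt3 (slow and fast troponin T), Tnnc1 and Tnnc2 (slow and fast troponin C), Tpm1, Tpm2 and Tpm3 (tropomyosins). All 9 were found among 21322 mouse genes and among 12411 rat gene symbols, and all 9 passed the filter on low values in both species, which kept genes that reached 1 CPM in 2 or more libraries. RNA of the tibialis anterior, the muscle that lifts the foot, had been sequenced in 33 libraries from wild-type animals, 17 of mice and 16 of rats. A stimulator implanted in the animal drove the nerve, and the trained muscle was taken 1 hour after exercise. The leg titles carry TAL or TAR with an animal number, read here as the left and the right leg of that animal.

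Mice were trained for 2 days (n = 2, legs TAL344 and TAL345), 10 days (n = 3, TAL340, TAL341 and TAL342) or over 17 days (n = 3, TAL337, TAL343 and TAL349), and 9 contralateral mouse legs served as controls. Rats were trained daily for 30 days (n = 2, TAL292 and TAL294), trained every 3 days for 30 days (n = 3, TAL295, TAL298 and TAL299) or sham-operated (n = 3, TAL296, TAL297 and TAL300), and the right legs of these 8 rats served as their contralateral controls. All groups of a species were compared with the same contralateral legs, so those comparisons are not independent of each other. No mouse leg was labelled as sham, so in mice surgery and the side of the body cannot be told apart from training. The labels give no sampling time for contralateral or sham legs, and so the hour after exercise cannot be told apart from the weeks of training either. Each leg enters the p-values as a sample of its own.

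In resting muscle tropomyosin lies along the actin filament and covers the sites that myosin binds. Calcium binds troponin C, which pulls troponin I, the inhibitory subunit, off actin, and troponin T holds the complex on tropomyosin, which then shifts and lets myosin attach. Fast and slow fibres carry different versions of each subunit. Tnni2, Tnnt3, Tnnc2 and Tpm1 belong to fast fibres, Tnni1, Tnnt1, Tnnc1 and Tpm3 to slow fibres, and Tpm2 (beta tropomyosin) is used by both. Tnnc1 is also the troponin C of the heart, Tpm1 is also a heart and smooth muscle tropomyosin, and Tpm3 also has products in cells other than muscle. The rodent tibialis anterior is mostly made of fast fibres. In bulk RNA fewer fibres of a type and less RNA per fibre cannot be told apart.

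Tnnt3 makes many messages, since several of its exons are used in alternation. It has 13 transcript models in the rat, beside 9 for Tpm1, 4 for Tnnt1, 3 for Tpm3 and 2 for Tpm2. Near the 3′ end of the coding part of Tnnt3 a pair of exons is used one or the other. They are shown because the Tnnt3 transcript models that differ most with training, described below, come in pairs of equal length. In the mouse (GENCODE vM21 annotation, build GRCm38, plus strand) they lie at chr7:142513665-142513705 and chr7:142514326-142514366. Each is 41 bases long, 7 and 14 of the 27 annotated Tnnt3 transcripts hold them, and 0 hold both. Capitals mark the 23 positions at which they differ.
upstream exon: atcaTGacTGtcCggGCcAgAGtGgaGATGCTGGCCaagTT
downstream exon: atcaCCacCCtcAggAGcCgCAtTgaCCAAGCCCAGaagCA
Because the exons are of equal length, transcripts that differ only in this choice have the same length. The deposited rat models carry a length and coordinates but no exon list, so which exon each rat model holds was not determined here. The mouse table holds 1 value a gene and shows no models.

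Estimated depth was 26.5 to 43.1 M reads in mouse libraries. The rat libraries had 11.6 to 28.0 M reads apart from leg TAR299, a contralateral leg with 4.87 M, whose values are therefore the least precise. No libraries held identical values. Leg TAR299 also stood apart in its expression: Myh6, a heart myosin, was at 203 CPM there and at 22.0 to 49.5 CPM in the other rat legs, and Tnni3, heart troponin I, was at 14.2 against 1.30 to 3.08 CPM. The values that this leg moved most are given with and without it. The 9 genes together took 2.65 to 4.05% of all CPM in mouse legs (median 3.22%) and 3.72 to 6.85% in rat legs (median 5.01%).

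Divided by transcript length, the contralateral legs showed the fast set far above the slow set in both species. In mice the level per kilobase was 10396.5 ± 1242 CPM for Tnnt3, 7721 ± 1268 for Tnnc2, 7340 ± 872 for Tpm1, 3539 ± 459 for Tnni2 and 3067 ± 430 for Tpm2 (mean ± SD, n = 9). Tpm3 stood at 13.6 ± 2.28, Tnnt1 at 3.94 ± 1.02, Tnnc1 at 1.75 ± 0.329 and Tnni1 at 0.924 ± 0.313 CPM per kilobase. In this order the SDs of the neighbours Tnnc2 and Tpm1, and of Tnni2 and Tpm2, overlapped. Fast exceeded slow 3828-fold for troponin I, 2641-fold for troponin T and 4415-fold for troponin C.

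The rat muscle held more of the slow set. Its contralateral levels per kilobase were 14671.5 ± 4355 CPM for Tpm1, 14520.2 ± 1513 for Tnnc2, 10773 ± 1967 for Tnnt3, 7340.28 ± 754 for Tpm2 and 7046 ± 2573 for Tnni2 (mean ± SD, n = 8). Tpm3 was at 156 ± 78.3, Tnnt1 at 138 ± 60.9, Tnnc1 at 77.0 ± 46.3 and Tnni1 at 67.6 ± 30.0 CPM per kilobase. The SDs of the 4 slow genes overlapped, as did those of Tpm1 with Tnnc2 and Tpm2 with Tnni2. Without TAR299 Tpm1 was at 13241.8 ± 1747, below Tnnc2 at 14552 ± 1631, and Tnni2 at 6141 ± 295.07 CPM per kilobase (n = 7). Fast exceeded slow 104-fold for troponin I, 78.2-fold for troponin T and 189-fold for troponin C. The species were quantified separately, so no test was made between them.

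The fast genes Tnni2 and Tnnt3 are neighbours, 54.4 kb apart at chr7:141995545-141998148 and chr7:142052573-142069747 in the mouse (GRCm39) and 55.0 kb apart at chr1:197595012-197597555 and chr1:197652535-197669536 in the rat (rn7). Slow Tnnt1 and heart Tnni3 lie 1.92 kb apart in the mouse and 2.78 kb in the rat, and slow Tnni1 and heart Tnnt2 lie 25.4 and 31.7 kb apart.

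Rat Tnnt3 was deposited as 13 transcript models, 6 pairs of equal length (1047, 1053, 1062, 1065, 1068 and 1080 bases) and 1 model of 1035 bases. Within each pair, 1 model was far lower in trained muscle and the other was not. In a fit across all 10900 rat models that passed the filter, 6 Tnnt3 models were called lower (limma, adjusted p under 0.05) after daily training against contralateral legs, 1 of each pair, where 2.7% of all models were called lower. These 6 are called the low models below, and since that contrast picked them, its values are a description only. Their log2 differences there ran from −4.94 to −5.86, which is 30.7-fold to 58.3-fold lower. Their size depended on the daily trained leg: without TAL292 they ran from −3.92 to −4.68, and without TAL294 from −5.96 to −7.05. Sequence and reads are shared between models of 1 gene, so the 6 are not 6 independent results, and no source used here says how reads were split between them.

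The low models summed to 15.3 and 88.1 CPM in the daily trained legs. In the legs trained every 3 days they summed to 176 (TAL295), 220 (TAL298) and 161 CPM (TAL299), and in the sham legs to 2921 (TAL300), 2430 (TAL296) and 1054 CPM (TAL297). Contralateral legs ran from 1002 to 4322 CPM with a median of 1728. All 5 trained legs were below all sham and all contralateral legs, and both daily trained legs were below the 3 legs trained every 3 days. For daily trained against contralateral legs this was largely set by the choice of the models. The choice also favoured low values in the daily trained legs beside the legs trained every 3 days and the sham legs. As a share of all Tnnt3 CPM the low models made up 0.199% and 1.11% in the daily trained legs and 1.84%, 2.21% and 1.96% in the legs trained every 3 days. The share was 25.2%, 18.4% and 8.76% in the sham legs and 9.06 to 31.0% (median 17.3%) in the contralateral legs.

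The legs trained every 3 days and the sham legs were neither arm of the contrast that picked the low models, but they shared its estimate of the spread, and the right legs of the same rats were in its contralateral arm. The test between them is therefore not fully independent of the choice. Between them all 6 were called lower, at −3.07 to −3.56 on the log2 scale or 8.4-fold to 11.8-fold (limma, adjusted p 0.000715 to 0.0021), where 0.697% of all models were called lower. With the animal as a block the differences shrank to −2.23 to −2.79 and the adjusted p was 0.0123 to 0.0308, and all 6 were called in each of the other settings tried. All other comparisons in this paragraph reuse an arm of the picking contrast and are a description only. Against contralateral legs the group trained every 3 days differed by −3.10 to −3.47 (1.6% of all models called lower), and daily training against sham gave −4.91 to −5.95 (2.39% called lower). Sham against contralateral legs gave −0.04 to 0.10 (adjusted p 0.999 to 1), with 0 of 13 models called (0 also at an unadjusted p under 0.05), 0% of all models called and 315 models at an unadjusted p under 0.05. Daily training against every 3 days gave −1.84 to −2.39, and 0 of the 13 models were called by limma (adjusted p 0.319 to 0.545 for the 6, each with an unadjusted p under 0.05), where 0.0734% of all models were called. Of all 10900 models 627 had an unadjusted p under 0.05 there. Since low values in the daily trained legs picked the 6 models, these p-values are no test of daily training against every 3 days.

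The low model of 1047 bases shows the pattern in single legs. It was at 5.81 and 32.2 CPM after daily training, at 70.7, 91.2 and 65.1 CPM after training every 3 days, and at 1295 (TAL300), 1136 (TAL296) and 475 CPM (TAL297) in sham legs. Contralateral legs held 425 to 1936 CPM (median 776). Its partner of the same length was at 1954 and 1898 CPM after daily training, at 2620 (TAL295), 2832 (TAL298) and 2242 CPM (TAL299) after training every 3 days, at 2842, 3723 and 3700 CPM in sham legs, and at 1701 (TAR299) to 3625 CPM in contralateral legs (median 3028).

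None of the 7 other models was called in any comparison with all libraries. When 1 library was left out 2 of the 7 were called after daily training, against contralateral legs without TAR299 and against sham without TAL300, and 2 were called against sham with median-of-ratios rescaling. After daily training against contralateral legs the partners of 1047 and 1065 bases differed by −0.60 ± 0.21 (adjusted p 0.0994) and −0.57 ± 0.21 (adjusted p 0.108), and the other 5 by 0.03 to 0.05. Against sham legs the same partners of 1047 and 1065 bases differed by −0.82 (adjusted p 0.052) and −0.80 (adjusted p 0.054). Their sum over 7 models was 7659 and 7829 CPM after daily training, 9363, 9701 and 8092 CPM after training every 3 days, 8652, 10760.5 and 10987 CPM in sham legs, and 5174 (TAR299) to 10802 CPM (median 9594) in contralateral legs. Those ranges overlap between trained and contralateral legs, unlike the sums of the low models. For daily trained and contralateral legs this contrast was largely set by the choice, since the low models were called there and the other 7 were not.

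**Figure D1:**
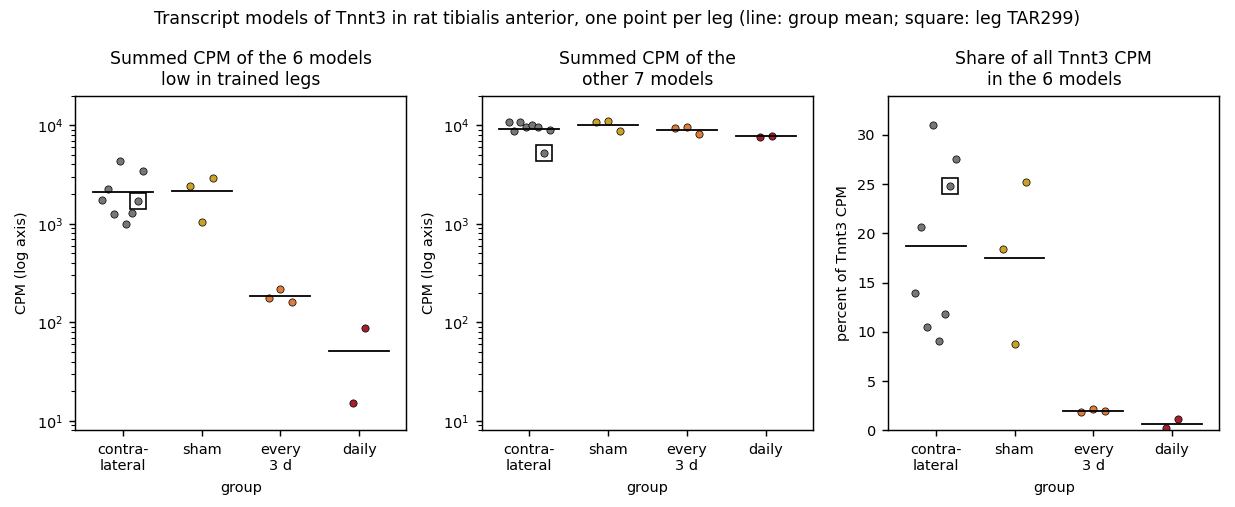
Summed CPM of the 6 low Tnnt3 models (left), of the other 7 models (middle) and the share of the low models in all Tnnt3 CPM in percent (right), 1 point per rat leg by group. The 5 trained legs lie at 0.199 to 2.21% in the right panel and all sham and contralateral legs at 8.76% or more. The low models were picked by daily trained against contralateral legs, which sets much of the separation of these groups.

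Within single rats the left leg minus the right leg gave a share of low models of −13.8 and −19.6 percentage points in the daily trained animals and −8.67, −9.59 and −22.9 points in those trained every 3 days. In the sham animals the difference was −12.6 (TAL296), −0.299 (TAL297) and −2.32 points (TAL300). All 8 left legs were thus below their own right leg, and the difference of sham rat TAL296 was as large as some of the trained ones.

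Summed over its models, fast troponin T stood at 7674 and 7917 CPM after daily training, at 9539, 9921 and 8253 CPM after training every 3 days, and at 11573 (TAL300), 13191 (TAL296) and 12042 CPM (TAL297) in sham legs. Contralateral legs ran from 6882 (TAR299) to 13940.4 CPM with a median of 11568, and the other 7 were all at 10850.3 CPM or more. Trained legs were thus below every sham leg and below every contralateral leg but TAR299. The gene-level difference was −0.51 ± 0.20 for daily training against contralateral legs (adjusted p 0.126) and −0.65 ± 0.23 against sham (adjusted p 0.0935), neither called. Without TAR299 the first became −0.61 ± 0.13 with an adjusted p of 0.0070, which was called. After training every 3 days it was −0.27 ± 0.17 against contralateral legs (adjusted p 0.413) and −0.41 ± 0.21 against sham (adjusted p 0.341).

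Tpm1, the fast alpha tropomyosin (rat chr8:67635480-67662245, rn7, minus strand), was the only gene among the 9 to be called at gene level, and it was lower in daily trained rats. It was at 9018 and 9740.4 CPM after daily training, at 14766 (TAL295), 14917 (TAL298) and 10988 CPM (TAL299) after training every 3 days, and at 16197 (TAL300), 24450.1 (TAL296) and 18991 CPM (TAL297) in sham legs. Contralateral legs ran from 13586 to 30482 CPM (TAR299) with a median of 17185, and the others reached at most 19815 CPM. Both daily trained legs were below every sham, every contralateral and every other trained leg.

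In the daily trained legs Tpm1 was 1.87-fold lower than in contralateral legs (−0.91 ± 0.25 on the log2 scale, adjusted p 0.0304) and 2.09-fold lower than in sham legs (−1.06 ± 0.29, adjusted p 0.0295). That made 1 of 9 genes called lower in each comparison, beside 2.89% and 2.61% of the 10356 rat genes tested called lower. Without TAR299 the first difference was −0.79 (adjusted p 0.0105). With the animal as a block the calls were lost (−0.75, adjusted p 0.287, and −0.99, adjusted p 0.316), and within the daily trained animals the left leg differed from the right by −0.95 and −0.56. Leaving out either daily trained leg also ended both calls, with adjusted p of 0.324 and 0.129 against contralateral legs and 0.229 and 0.0982 against sham. Without the filter on low values the adjusted p was 0.0642 and 0.0627. The call against sham was also lost without sham leg TAL296 (adjusted p 0.115) or TAL297 (adjusted p 0.0729), and held in 4 of 10 alternatives. After training every 3 days Tpm1 differed by −0.39 ± 0.21 from contralateral legs (adjusted p 0.334) and by −0.55 ± 0.26 from sham legs (adjusted p 0.303). Of its 9 models, 1 model of 1235 bases held nearly all of its CPM (8979 and 9702 CPM after daily training) and was called as well, by −0.91 against contralateral legs (adjusted p 0.0346) and −1.07 against sham (adjusted p 0.0333). The other model of 1235 bases was at most at 10.9 CPM in any leg.

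Beta tropomyosin, Tpm2 (rat chr5:57770924-57779939), was at 9665 and 7665 CPM after daily training, 9209, 10472 and 9719 CPM after training every 3 days and 9343 (TAL300), 9009 (TAL296) and 8253 CPM (TAL297) in sham legs. Contralateral legs held 8123 to 11143 CPM (TAR299, median 9071), and the groups overlapped. Its difference from contralateral legs was −0.10 ± 0.15 after daily training (adjusted p 0.747).

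The other fast subunits were not called at gene level. Fast troponin I, Tnni2, was at 3606 and 3394 CPM after daily training, at 3829, 3975 and 3673 CPM after training every 3 days and at 3942, 4423 and 4096 CPM in sham legs. Contralateral legs were at 3922 to 9083 CPM (median 4264), the highest being TAR299 and the others at most 4425 CPM. The daily trained legs were below all sham and contralateral legs, and the difference from contralateral legs was −0.39 ± 0.23 (adjusted p 0.325), or −0.25 without TAR299. Fast troponin C, Tnnc2, was at 8833 and 8189 CPM after daily training, 9473, 10314 and 8171 CPM after training every 3 days, 9045, 12225 and 10746 CPM in sham legs and 9219 to 12697 CPM in contralateral legs (median 10232). Its difference from contralateral legs after daily training was −0.28 ± 0.16 (adjusted p 0.301), with the daily trained legs below the lowest contralateral leg.

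The 4 slow genes varied widely between legs of 1 group, and none was called. Slow troponin I, Tnni1, was at 56.1 and 39.6 CPM after daily training and at 13.2 (TAL295), 19.4 (TAL298) and 121 CPM (TAL299) after training every 3 days. In sham legs it was at 57.4 (TAL300), 3.39 (TAL296) and 18.9 CPM (TAL297), and in contralateral legs at 24.8 to 85.2 CPM (median 50.6). Training groups, sham and contralateral legs overlapped.

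Slow troponin T, Tnnt1, showed the same high and low legs, with 106 and 95.6 CPM after daily training, 20.7, 39.6 and 244 CPM after training every 3 days, 116, 4.10 and 42.7 CPM in sham legs and 53.8 to 214 CPM in contralateral legs (median 124). Slow troponin C, Tnnc1, was at 33.6 and 21.5, at 6.95, 10.4 and 68.2, at 32.9, 1.59 and 9.90, and at 13.7 to 84.0 CPM (median 33.5) in the same groups. Slow tropomyosin, Tpm3, was at 172 and 159, at 49.4, 68.0 and 341.03, at 165, 13.2 and 67.4, and at 71.4 to 303 CPM (median 161). Sham leg TAL296 was the lowest of the 16 rat legs for all 4 genes, and TAL299 was the highest for all but Tnnc1, which was highest in TAR299.

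The sham legs differed from contralateral legs by −1.64 ± 0.67 for Tnni1, −2.06 ± 0.75 for Tnnt1, −1.87 ± 0.71 for Tnnc1 and −1.60 ± 0.63 for Tpm3 on the log2 scale, at unadjusted p of 0.0241, 0.0139, 0.0167 and 0.0212. The slow genes correlated with each other at 0.98 to 0.99 over the rat legs, so these are not 4 independent results. None of these differences passed limma's adjustment over all genes (adjusted p 0.999 for each): 0 of 9 genes and 0% of all genes were called between sham and contralateral legs, where 282 genes (2.72%) had an unadjusted p under 0.05. Single sham legs carried these values: without TAL296 they were −0.61 for Tnni1, −0.74 for Tnnt1, −0.82 for Tnnc1 and −0.61 for Tpm3, and without TAL300 they were −2.55, −3.07, −2.82 and −2.41. After daily training the slow genes differed from contralateral legs by −0.26 to 0.03 with SEs of 0.74 to 0.88, and after training every 3 days by −0.62 to −1.004 (adjusted p 0.516 to 0.654). Without TAL299 the latter ran from −1.47 to −2.03, and without TAL295 from −0.052 to −0.27. Against sham they differed by 1.54 to 1.83 after daily training (adjusted p 0.264 to 0.333) and by 0.97 to 1.05 after training every 3 days (adjusted p 0.603 to 0.658). Without sham leg TAL296 the differences after daily training were 0.51 to 0.65, and those after training every 3 days were −0.26 to −0.0081. After training every 3 days 0 of the 9 genes were called against contralateral legs (6.66% of all genes called) and 0 against sham (4.25% called). At an unadjusted p under 0.05 it was 0 of 9 beside 19.9% of all genes against contralateral legs, and 1 of 9 beside 16.2% against sham. Between daily training and every 3 days 0 of 9 were called, beside 0.0869% of all genes, with 0 of 9 at an unadjusted p under 0.05 beside 5.88% of all genes.

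Tpm3 was deposited as 3 rat models, of 956, 1132 and 1760 bases, and the model of 956 bases was at most at 9.62 CPM in any leg. The model of 1132 bases went from 3.25 CPM in TAL296 to 322 CPM in TAL299, the legs that were also lowest and highest for Tnni1 and Tnnt1. The model of 1760 bases was at 22.3 and 20.2 CPM after daily training, at 23.0 (TAL295), 15.3 (TAL298) and 19.4 CPM (TAL299) after training every 3 days, at 12.4, 9.96 and 10.1 CPM in sham legs and at 9.24 to 15.3 CPM in contralateral legs. Trained legs were thus above every sham leg, and all but TAL298 above every contralateral leg. It was called higher by 0.77 ± 0.18 after daily training (adjusted p 0.0156) and by 0.61 ± 0.16 after training every 3 days against contralateral legs (adjusted p 0.0263), and by 0.95 ± 0.21 and 0.79 ± 0.19 against sham (adjusted p 0.0117 and 0.023). In these comparisons 4.88%, 4.55%, 4.98% and 3.4% of all models were called higher. With the animal as a block none of the 4 calls held (adjusted p 0.186, 0.201, 0.339 and 0.419). Of 8 fibroblast markers 2 were called higher in each trained group against contralateral legs, beside 552 (daily) and 514 (every 3 days) of all 10356 genes. Against sham 3 were called higher after daily training and 0 after training every 3 days, beside 573 and 368 of all genes. The part of these markers in the differences of the model of 1760 bases was not tested. The 8 summed to 1332 to 1515 CPM after daily training, 763 to 2300 CPM after training every 3 days, 291.9 to 651 CPM in sham legs and 338 to 813 CPM in contralateral legs.

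**Figure D2:**
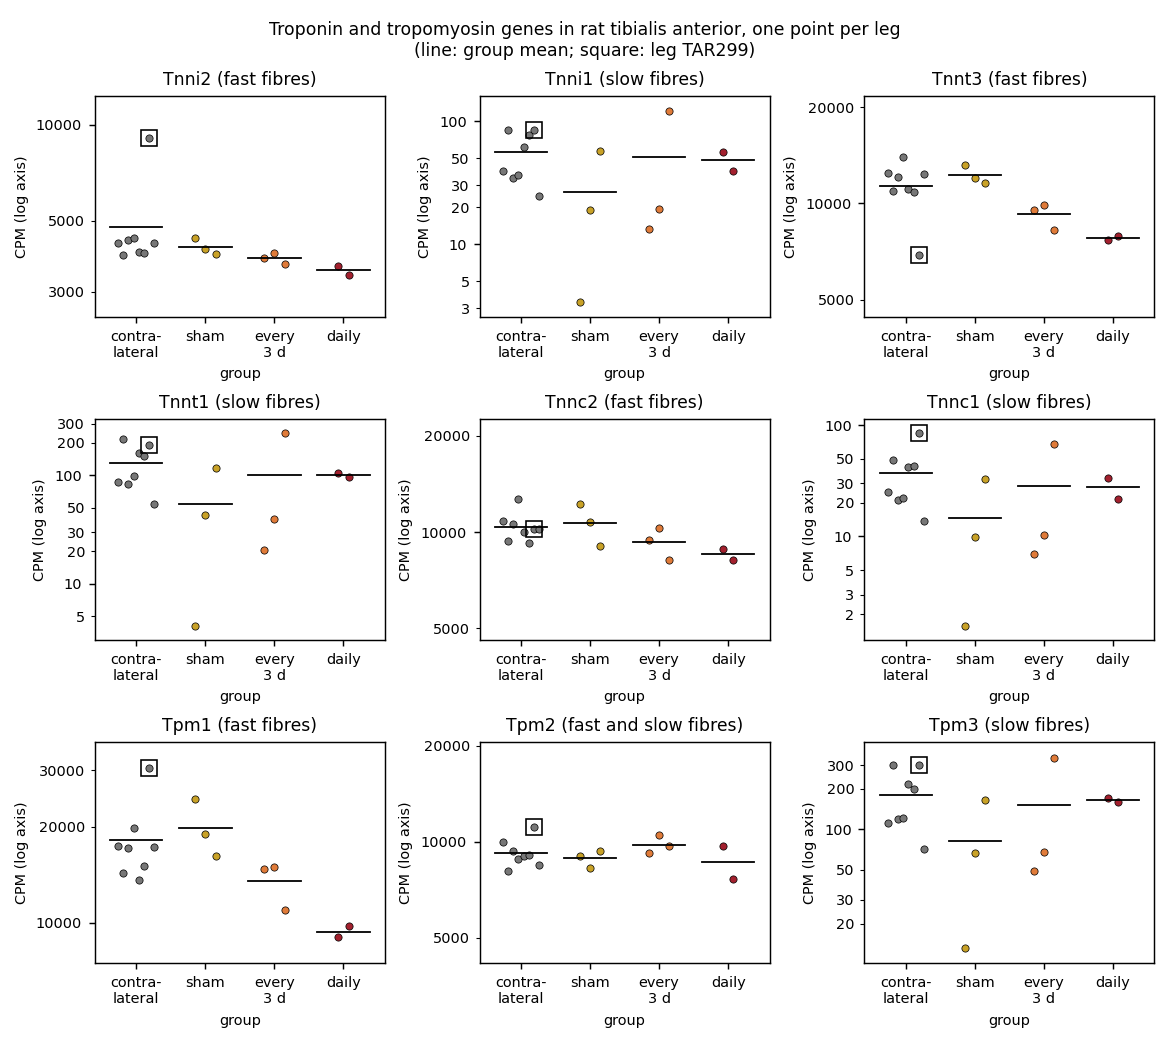
CPM (log axis) of the 9 genes in each rat leg, 1 panel per gene, with a line at each group mean and a square for contralateral leg TAR299. Tpm1 is lowest in the daily trained legs at 9018 and 9740.4 CPM, and the 4 slow genes spread widely within the sham group and the group trained every 3 days.

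The slow-to-fast ratio of each subunit was taken as log2((slow CPM + 0.5)/(fast CPM + 0.5)) in each leg, as a description. In rat contralateral legs it was −6.49 ± 0.67 for troponin I, −6.55 ± 0.91 for troponin T and −8.30 ± 0.90 for troponin C (mean ± SD, n = 8). Daily trained legs stood at −6.20 ± 0.29, −6.27 ± 0.14 and −8.28 ± 0.37 (n = 2), within 1 SD of the contralateral mean for each subunit. Legs trained every 3 days stood at −6.89 ± 1.73, −7.28 ± 1.96 and −9.03 ± 1.86, and sham legs at −7.99 ± 2.04, −8.75 ± 2.49 and −10.20 ± 2.22 (n = 3 each). The SDs of the sham legs and of the legs trained every 3 days exceeded the distance of their means from the contralateral mean for each subunit.

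The left leg against the right leg of the same rat shows that spread animal by animal. The troponin I ratio differed by 0.74 and −0.89 in the daily trained rats, by −1.16, −1.97 and 1.82 in those trained every 3 days and by −3.25, −1.71 and 1.31 in sham rats TAL296, TAL297 and TAL300. The 1.82 belongs to rat TAL299, whose right leg is TAR299, with Tnni2 at 3673 CPM in the left leg and 9083 CPM in the right. Troponin T and troponin C had the same sign as troponin I in all 8 rats, but were at 0.092 and 0.027 in rat TAL299. Each of the groups held animals on both sides of 0, in the group trained every 3 days through rat TAL299 alone. Leaving the low Tnnt3 models out of the sum moved the troponin T ratio of daily trained against contralateral legs from 0.28 to −0.01.

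**Figure D3:**
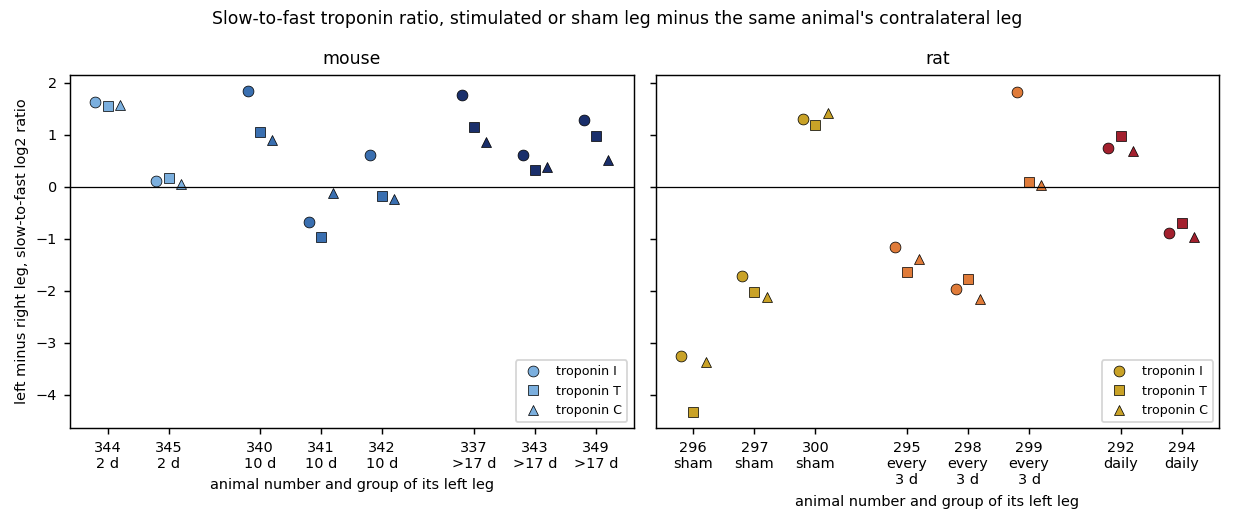
Left minus right leg of the slow-to-fast log2 ratio, 1 column of points per animal, for troponin I (circles), troponin T (squares) and troponin C (triangles), with mice and rats in separate panels. The 3 subunits of an animal mostly lie together, and sham rat TAL296 is lowest at −3.25 to −4.34.

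In mice none of the 9 genes was called in any comparison. After 2 days of training 0 of 9 were called against contralateral legs, beside 9.72% of the 13647 genes tested. At an unadjusted p under 0.05 it was 0 of 9 beside 27.1% of all genes. After 10 days it was 0 of 9 beside 5.53%, again with 0 at an unadjusted p under 0.05 beside 19.4% of all genes. After over 17 days it was 0 of 9 beside 8.78%, with 6 of 9 at an unadjusted p under 0.05 beside 23.6% of all genes. Between over 17 days and 2 days it was 0 of 9 beside 0.586%, with 2 of 9 at an unadjusted p under 0.05 beside 16.2% of all genes. These 2 were Tnnc2 at −0.54 ± 0.19 and Tnnt3 at −0.54 ± 0.20 on the log2 scale (limma, adjusted p 0.190 and 0.193).

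The fast subunits were at the low end after over 17 days. Fast troponin T, Tnnt3, was at 7135 (TAL337), 7337 (TAL343) and 6750.29 CPM (TAL349) after over 17 days, below all 9 contralateral legs, which held 7479 to 11481 CPM (median 9866). It was at 12869.5 (TAL344) and 8156 CPM (TAL345) after 2 days and at 8365, 8701 and 7671 CPM after 10 days. The difference from contralateral legs was −0.44 ± 0.14 after over 17 days (adjusted p 0.0664), −0.22 ± 0.14 after 10 days (adjusted p 0.447) and 0.10 ± 0.17 after 2 days (adjusted p 0.748).

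Fast troponin C, Tnnc2, was at 3889.74, 4142 and 3651 CPM after over 17 days, beside 4139 to 7096 CPM in contralateral legs (median 5408). It was at 6448 and 4951 CPM after 2 days and 4674, 5021 and 4214 CPM after 10 days, and the difference after over 17 days was −0.46 ± 0.14 (adjusted p 0.053). Fast troponin I, Tnni2, was at 2181, 1907 and 1991 CPM after over 17 days, beside 2114 to 3051 CPM in contralateral legs (median 2525), a difference of −0.38 ± 0.13 (adjusted p 0.0754). After 2 days it was at 2805 and 2269.94 CPM, and after 10 days at 2069, 2812 and 2525 CPM. When each library was rescaled by the median of ratios in place of its CPM total, all 3 were called lower after over 17 days, Tnni2 at −0.43 (adjusted p 0.0265), Tnnt3 at −0.49 (adjusted p 0.0238) and Tnnc2 at −0.51 (adjusted p 0.0271). With the animal as a block none of the 3 was called. Against their own right legs, TAL337, TAL343 and TAL349 differed by −0.11, −0.34 and −0.087 for Tnni2. The same legs gave −0.31, −0.43 and −0.15 for Tnnt3, and −0.26, −0.45 and −0.18 for Tnnc2.

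Slow tropomyosin, Tpm3 (mouse chr3:89979956-90008210), was at 55.5 (TAL337), 31.3 (TAL343) and 25.4 CPM (TAL349) after over 17 days, and at 18.2 to 32.3 CPM in contralateral legs (median 23.9), so that TAL337 alone lay above all of them. After 2 days it was at 26.0 and 27.5 CPM and after 10 days at 34.1, 25.1 and 27.9 CPM. The difference after over 17 days was 0.55 ± 0.18 (adjusted p 0.0697). Each of the 3 left legs was above its own right leg, by 1.20, 0.64 and 0.47, and with the animal as a block Tpm3 was called higher at 0.77 ± 0.14 (adjusted p 0.0089). It was called as well with the median-of-ratios rescaling (0.50, adjusted p 0.0306) and with mitochondrially encoded genes left out of the total (0.61, adjusted p 0.0249). Its near-identical copy Tpm3-rs7 had 7.47 to 27.6 CPM, the highest also in TAL337, and the split of reads between the copies is uncertain. Of 8 fibroblast markers 4 and of 8 macrophage markers 1 were called higher after over 17 days, at sums of 725 to 2663 CPM beside 228 to 733 CPM in contralateral legs for the fibroblast markers and 62.9 to 673 beside 37.8 to 177 CPM for the macrophage markers. Their part in the Tpm3 values was not tested.

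Tpm1 was at 7562, 9715 and 9752 CPM after over 17 days, at 9814 and 11249 CPM after 2 days and at 10315, 11387 and 10709 CPM after 10 days, beside 9468 to 13378 CPM in contralateral legs (median 11052). Its difference after over 17 days was −0.30 ± 0.13 (adjusted p 0.171), with TAL337 alone below all contralateral legs. Tpm2 was at 6341, 4971 and 4323 CPM after over 17 days, at 8555 (TAL344) and 5512 CPM after 2 days and at 5812, 6639 and 5835 CPM after 10 days, beside 3995 to 6444 CPM in contralateral legs (median 5544). Its largest difference from contralateral legs was 0.32 ± 0.19 after 2 days (adjusted p 0.282).

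The slow troponins of mice were at a few CPM or less in most legs, and single legs stood out. Tnni1 was at 3.56 (TAL344) and 0.824 CPM (TAL345) after 2 days, at 2.90 (TAL340), 0.792 and 0.829 CPM after 10 days and at 3.16 (TAL337), 0.857 (TAL343) and 2.05 CPM (TAL349) after over 17 days. Contralateral legs held 0.4996 to 1.35 CPM (median 0.888), so 4 of the 8 trained legs were above all contralateral legs and the other 4 were within their range. The differences were 0.79 ± 0.41 after 2 days (adjusted p 0.219), 0.43 ± 0.35 after 10 days (adjusted p 0.556) and 0.80 ± 0.35 after over 17 days (adjusted p 0.169).

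Tnnt1 was at 12.4 and 2.95 CPM after 2 days, at 5.52, 2.34 and 2.52 CPM after 10 days and at 6.56, 2.80 and 4.50 CPM after over 17 days, beside 2.33 to 5.16 CPM in contralateral legs (median 3.44). Tnnc1 was at 3.74 and 1.06, at 2.14, 1.40 and 0.711, and at 2.03, 1.14 and 1.30 CPM in the same legs, beside 0.926 to 1.71 CPM (median 1.23). The legs above the contralateral range were TAL344, TAL340 and TAL337 for both genes, 1 in each training group.

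The differences after 2 days, 0.71 ± 0.38 for Tnnt1 (adjusted p 0.235) and 0.56 ± 0.30 for Tnnc1 (adjusted p 0.243), rested on which of the 2 trained legs was used. Without TAL345 all 3 slow troponins were called higher, Tnni1 by 1.60, Tnnt1 by 1.67 and Tnnc1 by 1.28 (adjusted p 0.0226, 0.0059 and 0.0093), together with Tpm2 by 0.64 (adjusted p 0.0497). Without TAL344 the 3 were at −0.02, −0.24 and −0.16. Leg TAL344 also had 47.1 CPM of Myh3, the embryonic myosin, and 20.6 CPM of Tnnt2, the heart and developing muscle troponin T, where TAL345 had 2.55 and 2.34 CPM. Fhl1, called higher in every mouse training group against contralateral legs, was at 4186 CPM in TAL344 and 4544 CPM in TAL345.

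**Figure D4:**
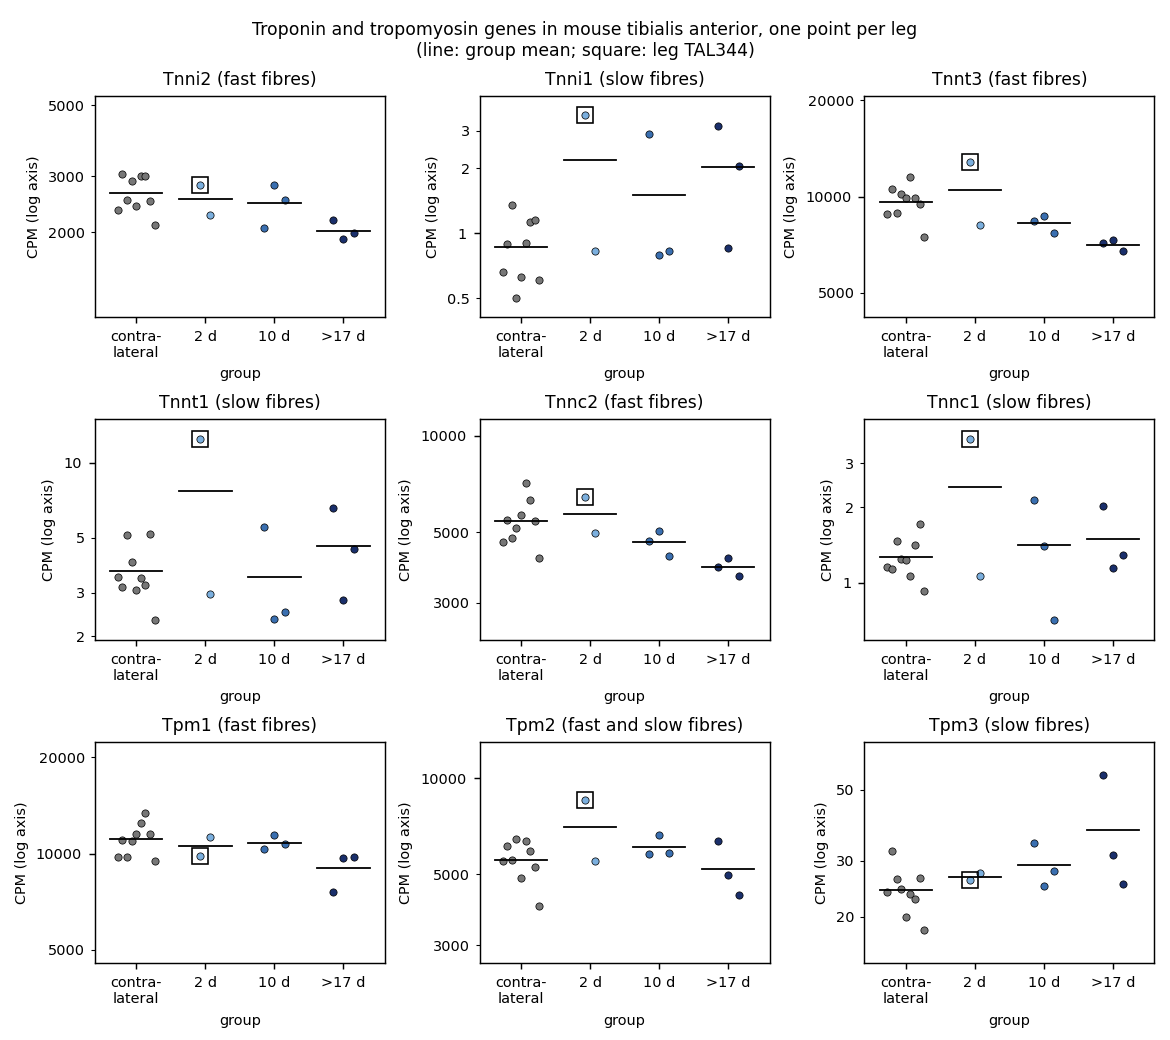
CPM (log axis) of the 9 genes in each mouse leg, 1 panel per gene, with a line at each group mean and a square for leg TAL344, trained for 2 days. TAL344 is the highest trained leg for Tnni1 (3.56 CPM), Tnnt1 (12.4 CPM), Tnnc1 (3.74 CPM) and Tnnt3 (12869.5 CPM).

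The slow-to-fast log2 ratio of troponin I in mice was −10.94 ± 0.32 in contralateral legs (n = 9), −10.09 ± 0.93 after 2 days (n = 2), −10.41 ± 1.01 after 10 days (n = 3) and −9.76 ± 0.63 after over 17 days (n = 3). For troponin T it was −11.20 ± 0.33, −10.58 ± 0.88, −11.11 ± 0.60 and −10.50 ± 0.57 in the same order, and for troponin C −11.58 ± 0.27, −11.10 ± 0.75, −11.31 ± 0.49 and −10.96 ± 0.36. Against its own right leg the troponin I ratio was higher in 7 of 8 mice, by 1.64 and 0.11 after 2 days, by 1.85, −0.68 and 0.61 after 10 days and by 1.77, 0.61 and 1.29 after over 17 days. All 3 subunits were above 0 in each of the 3 mice trained for over 17 days, with 1.14, 0.32 and 0.97 for troponin T and 0.87, 0.38 and 0.51 for troponin C. At these levels of slow transcript the value of the ratio depends on the pseudocount of 0.5 CPM.

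**Figure D5:**
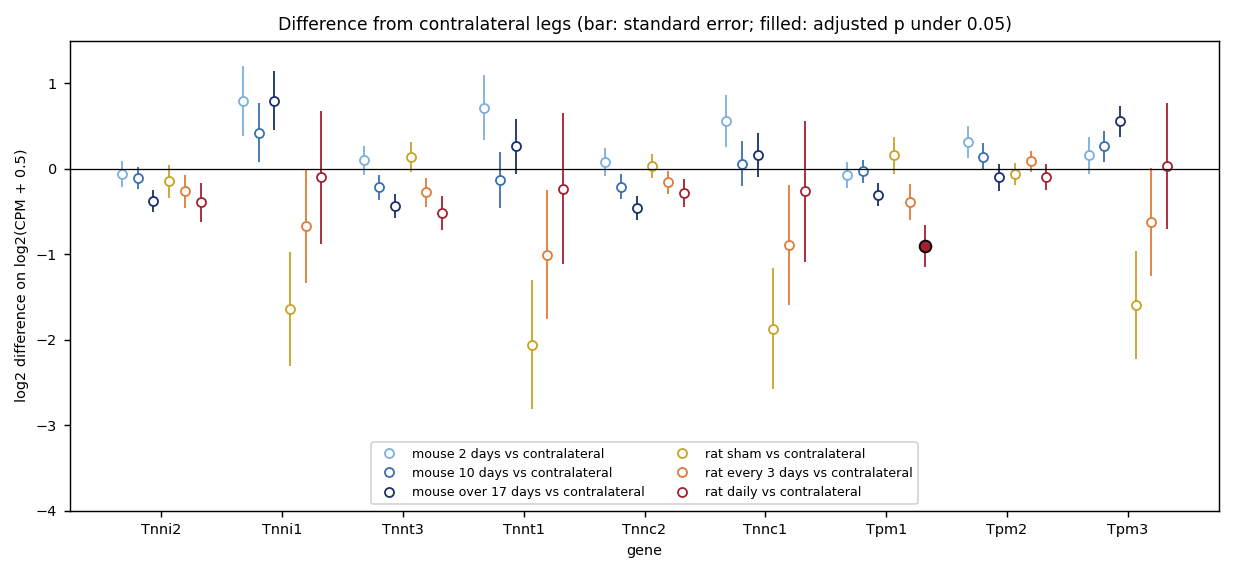
Differences from contralateral legs on the log2(CPM + 0.5) scale with SEs for the 9 genes, with 1 colour per trained or sham group of each species. Filled points passed an adjusted p of 0.05, and the single filled point is Tpm1 after daily training in rats at −0.91.

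As a set the 9 genes had a median log2 difference of 0.16 after 2 days in mice, −0.03 after 10 days and −0.10 after over 17 days, beside medians of 0.11, 0.03 and 0.05 over all genes tested. In rats the median was −0.26 after daily training, −0.39 after training every 3 days and −0.15 in sham legs against contralateral legs, beside 0.06, 0.03 and −0.04 over all genes.

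Across the 16 rat legs the slow genes had their likest patterns among slow-fibre genes. By Pearson's r of log2(CPM + 0.5), the non-member genes most like Tnni1 were Myh7 (0.98), Atp2a2 (0.98) and Myl2 (0.97). They were Myh7 (0.99), Myl2 (0.97) and Atp2a2 (0.97) for Tnnt1, Atp2a2 (0.98), Myh7 (0.97) and Myl2 (0.96) for Tnnc1, and Atp2a2 (0.98), Myh7 (0.98) and Myh7b (0.96) for Tpm3. Myh7 is the slow myosin heavy chain and Atp2a2 the slow calcium pump. The 4 slow genes correlated with each other at 0.98 to 0.99. All these genes share the legs' wide range, including TAL296 with 44.0 CPM of Myh7 and TAL299 with 2488 CPM.

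Rat Tpm1 was most like Casq1 (0.97), Mybpc2 (0.95) and Calm3 (0.95), of which Casq1 is the fast calsequestrin and Mybpc2 the fast myosin binding protein C. Rat Tnni2 was most like Jsrp1 (0.98), Trmt112 (0.97) and Lsm4 (0.97), a pattern in which TAR299 is far from the other legs. Rat Tnnt3 was most like Adipor1 (0.94), Mlf2 (0.92) and Ppp1r1a (0.92), Tnnc2 like Susd4 (0.88), Fanca (0.87) and Mapkapk5 (0.84), and Tpm2 like Tmco6 (0.85), Crocc (0.83) and Ogfod3 (0.82). Tpm1 correlated with Tnni2 at 0.79 and with Tnnc2 at 0.74, and Tnnt3 with Tnnc2 at 0.68.

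Across the 17 mouse legs Tnnt3 and Tnnc2 went together (r 0.93) and were both most like Stac3 (0.96 and 0.97), a part of the calcium release machinery of the fibre, and then R3hcc1 (0.94 and 0.90). Next came Actn3 (0.94), the fast alpha-actinin, for Tnnt3 and Pfdn6 (0.89) for Tnnc2. Tnni2 was most like Coq2 (0.95), Mpst (0.94) and Fem1a (0.94), Tpm1 like Ckm (0.84), Casq1 (0.83) and Igfals (0.78), and Tpm2 like Eef1a2 (0.95), Ap3d1 (0.94) and Eef1d (0.94). Among the slow genes Tnni1 was most like Mymk (0.92), the fusion protein of myoblasts, Sox11 (0.92) and Gpr65 (0.88). Tnnt1 was most like Map9 (0.88), Spry2 (0.87) and Chrng (0.86), Tnnc1 like Ifi27 (0.91), Rcbtb2 (0.89) and Grb2 (0.89), and Tpm3 like its copy Tpm3-rs7 (0.95), Shisa5 (0.93) and Cmtm6 (0.93). Over these legs Tnni1, Tnnt1 and Tnnc1 had low medians of 0.888, 3.44 and 1.25 CPM, and TAL344 was the highest leg for each. The part of single legs in the r values of the slow troponins was not tested.

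Other genes of the thin filament were called in several comparisons in which no troponin was. Of 18 such genes 7 were called higher and 0 lower after 2 days in mice (median log2 difference 0.46, beside 0.11 over all genes). Among them were Klhl40 (2.09), Klhl41 (1.30) and Lmod2 (2.33), which stabilise or lengthen thin filaments, and Nrap (0.80). After 10 days 4 were higher and 1 lower, and after over 17 days 5 were higher and 0 lower. Over all 13647 mouse genes tested, 999 were higher and 327 lower after 2 days. It was 492 and 262 after 10 days, and 860 and 338 after over 17 days. Tpm4, a tropomyosin of cells outside muscle and of regenerating fibres, was at 60.3 ± 17.2 CPM after over 17 days (n = 3) and 30.3 ± 4.43 CPM in contralateral legs (n = 9), called higher by 0.96 (adjusted p 0.00129). In rats 15 of the 18 were tested and 3 were called higher after daily training, Klhl40 (2.18), Lmod2 (2.56) and Tpm4 (0.89, 25.7 ± 2.46 beside 13.9 ± 2.98 CPM, adjusted p 0.0116), with 0 lower. After training every 3 days 2 were higher against contralateral legs, Klhl40 (2.62) and Lmod2 (2.46), and between sham and contralateral legs 0 were called in either direction.

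Other slow-fibre genes split. Of 11 tested, 2 were called higher in each comparison of trained with contralateral or sham rat legs, in each case Fhl1 and Csrp3, genes of stretch and load sensing, by 2.22 and 3.62 after daily training against contralateral legs. In mice 4 were higher after 2 days (Fhl1 2.36, Ankrd2 2.75, Csrp3 4.54 and Myoz2 1.15), 3 after 10 days and 1, Fhl1 (1.52), after over 17 days, with 0 lower in each. Of the other fast-fibre genes, 7 of 15 were called lower and 1 higher after daily training in rats, among the lower ones Myh4 (−8.22), the fastest myosin heavy chain, Pvalb (−2.86), Actn3 (−2.44) and Mylk2 (−1.80). After training every 3 days 2 were lower and 1 higher, namely Myh4 (−3.45), Mylk2 (−0.88) and Myh1 (1.76). In mice 2 of 16 were lower after 2 days, 2 were lower and 1 higher (Myh1, 0.95) after 10 days, and 5 were lower after over 17 days, including Mylk2 (−0.99), Actn3 (−0.72), Mybpc2 (−0.68) and Pvalb (−0.65). Of the genes of developing and regenerating fibres 4 of 10 tested were called higher after 2 days in mice, Myog (2.85), Ncam1 (2.11), Myh8 (2.696) and Chrng (2.52), and 0 were called after 10 days or over 17 days. Leg TAL344 was far above TAL345 in each, at 43.5 beside 8.16 CPM for Myog, 29.5 beside 4.49 CPM for Ncam1, 93.0 beside 14.3 CPM for Myh8 and 20.1 beside 0.0266 CPM for Chrng.

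Smooth muscle, which also expresses Tpm1 and Tpm2, was followed by 10 markers. In rats they summed to 563 to 1346 CPM in contralateral legs, 1182 to 1306 CPM after daily training, 1149.9 to 1393 CPM after training every 3 days and 1183 to 1299.9 CPM in sham legs. In mice they summed to 1304 to 1691 CPM in contralateral legs and 1191 to 1668 CPM in trained legs. In daily trained rats 2 were called higher, Cspg4 (1.10) and Smtn (0.62), and 1 lower, Lmod1 (−2.62), and in mice 0 of 10 were called against contralateral legs. Rat macrophage markers summed to 61.4 to 69.0 CPM after daily training, 33.5 to 112 CPM after training every 3 days, 24.9 to 73.3 CPM in sham legs and 20.5 to 60.6 CPM in contralateral legs.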

How the data were processed

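The authors deposited CPM, counts scaled to the total of each library, with 0.0001 added to each value, which was subtracted here. Per the submitters' processing notes, DESeq2, Partek and STAR 2.7.8a were used, with builds rn7, GRCm39 and mm10, and no role is stated for any of them. Coordinates are as deposited, GRCm39 for mouse and rn7 for rat. Rat models of a symbol were summed, and 23 mouse entries sharing a symbol were left out. Lengths came from GENCODE vM21 transcripts (mouse) and the deposited models (rat). Low values were whole multiples of a step in only 85.2 to 89.4% of cases at a tolerance of 0.05, so no count test was run, and depth was estimated from the steps.

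Genes that reached 1 CPM in 2 or more libraries entered the test, limma 3.58.1 under R 4.3.3 on log2(CPM + 0.5) (eBayes with trend, 2-sided, Benjamini-Hochberg over all genes tested, called at an adjusted p under 0.05). All groups of a species shared 1 spread. The design was set for gene level, and the fit over rat models was added after their values were seen. Log2 differences understate the change of low genes. The script was tested on simulated data. The pairing comes from the animal number of left and right legs, whose deviations from their group means correlated at −0.03 to 0.30. All 9 genes were tested in every comparison, and the text gives the differences of only part of them in some. Listed genes are named by adjusted p (at most 4 a list), and like genes by r. The members and lists were chosen with earlier results of these data known. Alternatives were pseudocounts of 0.1 and 1, no filter, median-of-ratios rescaling, mitochondrial genes left out, the animal as a block and each library left out in turn.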

Additional observations from a re-analysis of the deposited data

Results flagged for a closer look

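In groups of 4 to 10 legs, the gap between the extreme leg and its nearest neighbour was set against the range of the group, and 25 such groups were checked, where chance flags a share of about 0.05 of groups. Rat contralateral leg TAR299, the library of lowest depth, was extreme for 3 of the fast genes: the gap made up 0.856 of the group's range for Tnni2 (highest), 0.645 for Tnnt3 (lowest) and 0.533 for Tpm1 (highest). In mice, contralateral leg TAR344 had a gap of 0.5 of the range in the slow-to-fast ratio of troponin C. The part of depth in these values was not tested.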

How the results depend on the processing

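The animal as a block lowered the counts of calls in most comparisons. With it the genes called fell from 1326 to 560 in mice after 2 days, from 754 to 400 after 10 days and from 80 to 1 between over 17 and 2 days. In rats they fell from 851 to 284 (daily training against contralateral legs), from 843 to 143 (against sham), from 440 to 172 (every 3 days against sham) and from 9 to 0 (daily against every 3 days), and for rat models in these comparisons from 826 to 253, 804 to 109, 447 to 168 and 8 to 0. With each library left out, the genes called ranged from 195 (without TAL344) to 3416 in mice after 2 days, from 15 (without TAL344) to 2233 between over 17 and 2 days, and from 566 (without TAL337) to 1454 after over 17 days. In rats they ranged from 122 to 1326 for daily training against contralateral legs and from 188 to 899 against sham, in both cases lowest without TAL292, and from 322 (without TAL295) to 984 for every 3 days against contralateral legs. Median-of-ratios rescaling split the calls into 776 higher and 699 lower after 2 days in mice, where CPM gave 999 and 327, and moved the median of all genes there from 0.11 to −0.0047. The same rescaling gave 907 and 666 against 860 and 338 after over 17 days, 541 higher and 423 lower, against 552 higher of 851, for daily trained rats against contralateral legs, and 505 and 410 against 573 and 270 for daily training against sham. Leaving out mitochondrial genes gave 839 and 476 in mice after 2 days and 463 and 376 against 492 and 262 after 10 days, and rescaling raised the calls between over 17 and 2 days from 80 to 127.

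Of the 9 members, mouse calls after over 17 days went from 0 to 4 with the rescaling, to 1 with the block and to 1 without mitochondrial genes. Rat calls went from 1 to 0 without the filter and from 1 to 0 with the block, for daily training against contralateral legs and for daily training against sham. Without the filter the adjusted p of Tpm1 was 0.0642 and 0.0627. With each library left out, the members called ranged from 0 to 4 after 2 days in mice, from 0 to 4 between over 17 and 2 days (4 without TAL345, namely Tnnt1 −1.41, Tnnt3 −0.86, Tnnc1 −1.12 and Tnnc2 −0.73) and from 0 to 3 after over 17 days. The last gave 3 without TAR349 (Tnni2 −0.42, Tnnt3 −0.48 and Tnnc2 −0.50), 1 without TAL349 or TAR340 (Tpm3 0.79 and 0.61) and 1 without TAR337 (Tnnc2 −0.48). In rats the range was 0 to 2 for daily training against contralateral legs and 0 to 1 against sham, with 0 in the latter without TAL292, TAL294, TAL296 or TAL297. The low Tnnt3 models were called in every alternative run. The cause of these shifts was not tested.

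A sign changed under another setting for members that were called in neither. With the rescaling, mouse 2 days gave Tnnt3 −0.028 and Tnnc2 −0.046, and rat daily training gave Tpm3 −0.028 against contralateral legs. With the pseudocount of 1, Tnni1 gave −0.0083 between over 17 and 2 days. With the block, Tnnt3 gave −0.055 and Tnnc2 −0.24 at 2 days, Tpm1 0.032 at 10 days, Tpm2 0.11 over 17 days, and Tnni2 0.075 and Tpm1 0.11 between over 17 and 2 days. In rats the block gave Tpm3 −0.15 (daily), Tpm2 −0.0077 (every 3 days), Tnnt3 −0.018, Tnnc2 −0.043 and Tpm2 0.015 (sham) against contralateral legs, Tpm2 −0.023 for every 3 days against sham and Tnni2 0.27 for daily against every 3 days. With each library left out in turn, the following log2 differences crossed 0. Mouse 2 days against contralateral legs gave Tnnc1 from −0.16 to 1.28, Tnnc2 from −0.11 to 0.27, Tnni1 from −0.017 to 1.60, Tnni2 from −0.21 to 0.091, Tnnt1 from −0.24 to 1.67, Tnnt3 from −0.23 to 0.43 and Tpm1 from −0.17 to 0.029. Mouse 10 days against contralateral legs gave Tnnc1 from −0.21 to 0.36, Tnni1 from −0.032 to 0.66, Tnni2 from −0.20 to 0.017, Tnnt1 from −0.48 to 0.066 and Tpm1 from −0.069 to 0.0044. Mouse over 17 days against contralateral legs gave Tnnc1 from −0.025 to 0.29, Tnnt1 from −0.0033 to 0.54 and Tpm2 from −0.25 to 0.028. Mouse over 17 days against 2 days gave Tnnc1 from −1.12 to 0.32, Tnni1 from −0.80 to 0.82 and Tnnt1 from −1.41 to 0.50. Rat daily training against contralateral legs gave Tnnc1 from −0.58 to 0.052, Tnni1 from −0.35 to 0.15, Tpm2 from −0.27 to 0.069 and Tpm3 from −0.13 to 0.16. Rat daily training against sham gave Tpm2 from −0.21 to 0.13. Rat daily training against every 3 days gave Tnni1 from −0.047 to 1.53. Rat training every 3 days against sham gave Tnnc1 from −0.072 to 1.93, Tnni1 from −0.058 to 1.89, Tnnt1 from −0.26 to 2.07 and Tpm3 from −0.0081 to 1.79. Rat sham against contralateral legs gave Tnnc2 from −0.070 to 0.15 and Tpm1 from −0.0026 to 0.29.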
